A study of Mus musculus with 20 samples.

Results

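Lysosome and autophagy genes were followed in AML-12, a mouse hepatocyte line, with and without the kinase Ripk3 and with and without the saturated fatty acid palmitate. The members were a list of 55 genes: lysosomal hydrolases, lysosomal membrane proteins, subunits of the proton pump, autophagy genes and the transcription factors Tfeb and Tfe3. A member was taken into the description when its gene name stood in any of the 4 gene tables of the study, and 38 of the 55 did, of 6261 genes in any table. The tables hold only genes past the authors' own test. The other 17 (Ctsa, Ctsd, Lgmn, Tpp1, Galc, Man2b1, Fuca1, Ppt1, Psap, Lamp1, Mcoln1, Atp6v0d1, Atp6v1b2, Atp6v1h, Ulk1, Atg12 and Tfeb) have no level here.

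The study had 20 RNA-seq libraries in 4 groups of 5: palmitate-treated Ripk3-/- cells, untreated Ripk3-/- cells, palmitate-treated wild-type cells and untreated wild-type cells. Palmitate was given at 125 µM, bound to bovine serum albumin, for 24 h. All groups are the same cell line, and none is labelled as given albumin alone, so an effect of palmitate and one of its carrier cannot be told apart. Neither the number of knockout clones nor separate cultures behind the 5 libraries are given in the labels. The p-values therefore measure the spread between libraries of a group, and that spread may be technical.

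Lysosomes are acidic organelles in which proteases, glycosidases and lipases break down material delivered by endocytosis and autophagy, and the V-ATPase pumps the protons that keep them acidic. In autophagy, a membrane decorated with lipid-linked proteins of the ATG8 family encloses cytoplasmic cargo brought by receptors such as p62 and then fuses with a lysosome. TFEB and TFE3 are transcription factors of the MiT/TFE family that bind a short palindrome, the CLEAR element, in promoters of many of these genes. In hepatocytes this route degrades lipid droplets, glycogen and damaged mitochondria. RIPK3 is the kinase that phosphorylates MLKL in necroptosis.

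The core of the CLEAR element, the E-box CACGTG, stood in the promoters of 15 of the 46 members with a RefSeq promoter entry (32.6%), of 9 of the 32 such members found in a table (28.1%) and of 2187 of 27025 genes with a promoter (8.09%). The window was 250 bases before to 50 after the RefSeq start. The longer form TCACGTGA, which contains CACGTG, stood in 6 of the 46 (13.0%), in 2 of the 32 (6.25%) and in 1.12% of all genes. With a further G before and C after it, the motif stood in 0 of the 46 and in 0.37% of all. These motifs are palindromes, so each search covers both strands. Exact letters were searched and a match is no proof of a bound site. The 250 bases before the start are shown for 4 members that hold the core and were called in the most comparisons: Ctsf at chr19:4854915-4855164 on the plus strand, Atp6v1a at chr16:44139260-44139509 on the minus strand, Gaa at chr11:119267713-119267962 on the plus strand and Gla at chrX:134601006-134601255 on the minus strand (RefSeq, GRCm38.p6). Capitals mark CACGTG, which begins 79 bases before the start in Ctsf, 131 in Atp6v1a, 140 in Gaa, and 227 and 194 in Gla. In Atp6v1a and Gla the core lies within TCACGTGA.
Ctsf: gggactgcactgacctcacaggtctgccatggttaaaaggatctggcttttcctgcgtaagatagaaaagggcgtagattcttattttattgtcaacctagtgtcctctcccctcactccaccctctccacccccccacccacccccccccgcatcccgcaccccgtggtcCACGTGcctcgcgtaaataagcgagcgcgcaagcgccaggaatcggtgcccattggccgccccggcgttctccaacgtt
Atp6v1a: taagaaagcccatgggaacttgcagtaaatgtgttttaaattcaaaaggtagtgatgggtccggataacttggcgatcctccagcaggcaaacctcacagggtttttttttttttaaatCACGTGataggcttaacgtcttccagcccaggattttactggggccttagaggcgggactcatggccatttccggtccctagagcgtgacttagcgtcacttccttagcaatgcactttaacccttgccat
Gaa: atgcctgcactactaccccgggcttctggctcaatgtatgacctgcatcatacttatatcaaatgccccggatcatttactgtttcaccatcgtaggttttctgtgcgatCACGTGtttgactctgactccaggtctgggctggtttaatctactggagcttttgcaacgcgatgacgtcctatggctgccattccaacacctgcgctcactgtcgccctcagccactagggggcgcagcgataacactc
Gla: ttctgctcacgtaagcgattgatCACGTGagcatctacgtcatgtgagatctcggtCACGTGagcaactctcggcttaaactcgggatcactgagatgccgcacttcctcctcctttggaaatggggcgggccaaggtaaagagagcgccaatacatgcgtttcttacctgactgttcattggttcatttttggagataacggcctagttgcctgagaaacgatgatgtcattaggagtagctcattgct

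Libraries held 21.2 M to 30.1 M reads, of which the genes of a table held 15.8% to 47.9%. Ripk3 had 4.66 ± 3.02 normalised counts in untreated Ripk3-/- libraries against 18.03 ± 5.52 in untreated wild-type libraries, and 6.33 ± 3.91 against 21.5 ± 3.26 with palmitate (SD, n = 5 each, two-sided exact permutation p = 0.00794 each, the smallest 5 against 5 can give). Over the genes listed between genotypes without palmitate, untreated Ripk3-/- replicate 1 stood apart: the chi-square per degree of freedom was 35 to 48.2 in pairs with it and at most 14.5 in other pairs of its group. Over the genes listed for palmitate in Ripk3-/- cells it did not, at 5.38 to 13.4 in pairs with it and up to 13.6 in others. Calls on members, on a wider gene set and in a fit over all libraries, sums of markers and shares by chromosome are also given without it.

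Some markers of cell types differed between the groups. Only markers listed in a comparison could be summed, here and below. Listing selects genes that differ, so these sums were bound to shift and say nothing of the unlisted markers. Of 10 hepatocyte markers 8 stood in some table and Apoa1 and Apob in none, and group means of Alb were 172 to 380.4 normalised counts, and those of Ttr 11006 to 14283. Without palmitate Serpina1a, Serpina1b and Trf were listed, all at higher means in Ripk3-/- cells, and summed to 1639.6 to 3224 in untreated Ripk3-/- against 1322 to 1755 in untreated wild-type libraries, and to 2651 to 3224 in Ripk3-/- libraries without replicate 1. With palmitate Hnf4a, Ttr, Serpina1a, Serpina1b and Trf rose in Ripk3-/- relative to wild-type cells, with sums of 20947 to 23023 against 16930.3 to 17776. In wild-type cells Alb rose and Krt8, Krt18 and Ttr fell with palmitate, and these and Trf summed to 81213 to 85241 in palmitate-treated against 92837 to 99662 in untreated libraries. In Ripk3-/- cells Alb rose and Krt8 fell with palmitate (Krt8 not called without untreated replicate 1), with sums of 36261 to 40043 with palmitate against 39709 to 48191 untreated. Among 10 macrophage and leukocyte markers Cd14 and Cd68, itself a lysosomal protein, were listed, and of 6 endothelial markers none. Cd14 and Cd68 summed to 6315 to 7566 in palmitate-treated against 5617 to 6696 in untreated Ripk3-/- libraries (5617 to 6373 without replicate 1), and to 6366 to 7118 against 4927 to 5925 in wild-type libraries. Of them, Cd14 was listed between genotypes, at 6109.8 to 7297 in untreated Ripk3-/- (6109.8 to 6934 without replicate 1) against 4684 to 5629.6 in untreated wild-type libraries, and at 6551 to 7857 against 5764 to 6452 with palmitate.

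Of 6 cholangiocyte markers, Krt19 and Spp1 rose and Sox9 fell between genotypes, without palmitate (Sox9 log2 fold change -0.23, adjusted p = 0.00353 by edgeR) and with it (-0.18, edgeR adjusted p = 0.022), and Krt7 rose with it. The listed ones summed to 45064 to 49012 in untreated Ripk3-/- (45064 to 47348 without replicate 1) against 36987 to 41717 in untreated wild-type libraries, and to 50426 to 53260.1 against 44387 to 46194 with palmitate. Spp1 rose with palmitate, at 34064 to 37293 in palmitate-treated against 28563 to 32727 in untreated Ripk3-/- libraries (28563 to 30927 without replicate 1). In wild-type cells Spp1 rose and Krt19 fell, with sums of 40316 to 42403 against 31788 to 36848. Of 10 mesenchymal and stellate markers Vim and Des were listed, with sums of 21984 to 24501 in untreated Ripk3-/- (the same range without replicate 1) against 20395 to 22079.5 in untreated wild-type and 20253 to 21672 against 19109 to 19599 with palmitate. Vim made up nearly all of these sums, with means of 23024 for Vim and 22.5 for Des in untreated Ripk3-/- libraries. In untreated cells Des rose, a call lost on leaving out replicate 1, and Vim was not called (adjusted p = 0.0625 by edgeR). In palmitate-treated cells both rose. Vim alone was listed for palmitate in wild-type cells, at 20834 to 21410.3 against 21304 to 23054, and was not called. The part of these shifts in the member results was not tested, and in bulk RNA fewer cells of a type and less RNA per cell cannot be told apart.

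Counts for members existed in palmitate-treated Ripk3-/- libraries for 32 members, in untreated Ripk3-/- for 23, in palmitate-treated wild-type for 35 and in untreated wild-type for 29, and in all 4 groups for 18. The authors' FPKM (sequenced fragments per kilobase of gene, scaled to library size) puts their levels on a scale per length. Sqstm1, which encodes the receptor p62, was the highest, at 321 ± 6.92 FPKM in palmitate-treated Ripk3-/-, 301 ± 13.5 in untreated Ripk3-/-, 332 ± 12.5 in palmitate-treated wild-type and 300.2 ± 6.45 in untreated wild-type libraries (SD, n = 5 each). Next came the ATG8 protein gene Gabarap, at 176 ± 5.26 and 198 ± 9.82 FPKM in palmitate-treated and untreated wild-type libraries, the carboxypeptidase cathepsin Z gene Ctsz, at 152 ± 11.6 to 178 ± 6.62 over the 4 groups, the tetraspanin gene Cd63, and Grn, the gene of progranulin. Ctsb, which encodes cathepsin B, lay between 82.8 ± 1.29 and 99.8 ± 2.9 FPKM. At the low end stood the cholesterol transporter gene Npc1, at 7.68 ± 0.355 to 9.07 ± 0.282, Manba (beta-mannosidase), Wipi1 (a phosphoinositide-binding protein of the forming autophagosome) and Tfe3. Differences between groups within a gene were small beside these differences between genes. The order of neighbours, such as Becn1 and Atg7, was not tested.

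**Figure D1:**
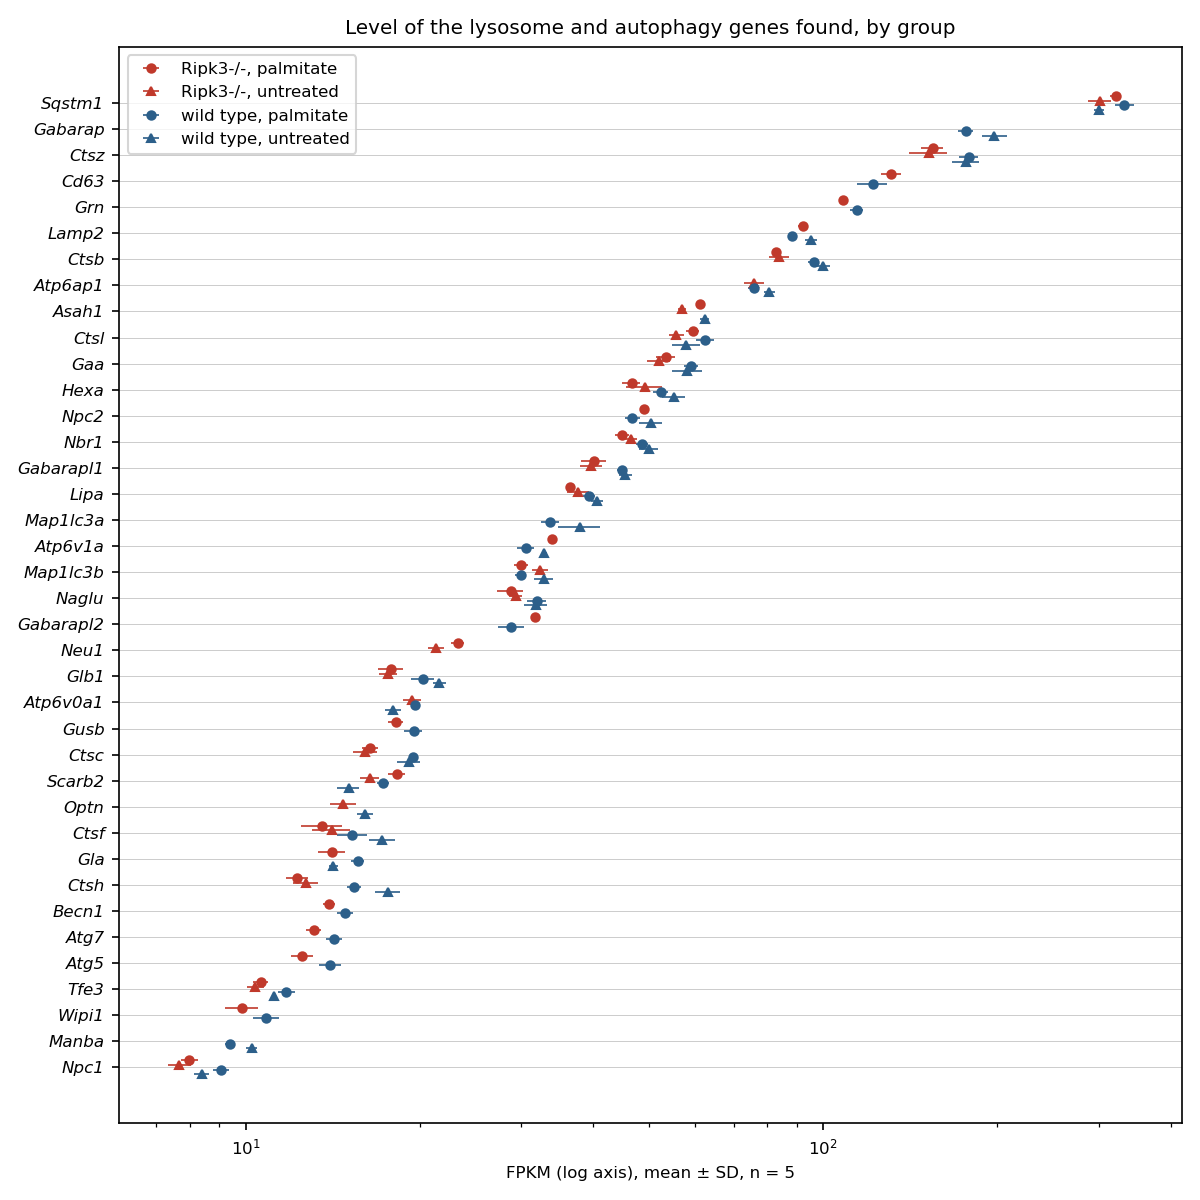
Mean level of each member found, in FPKM on a log axis, with SD over 5 libraries, for the groups that have counts (red, Ripk3-/-; blue, wild type; circles, palmitate; triangles, untreated). Sqstm1 is at 300.2 ± 6.45 to 332 ± 12.5 FPKM and Npc1 at 7.68 ± 0.355 to 9.07 ± 0.282, and groups lie close together within a gene.

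Without palmitate, 5 of 10 lysosomal protease genes and 3 of 11 glycosidase genes were called lower in Ripk3-/- than in wild-type cells, and none of either kind higher. Of the 55 members, 12 fell and 1 rose by edgeR at an adjusted p of 0.05, and all 5 listed proteases fell: Ctsh by 28%, Ctsf by 18.2%, Ctsb by 16.2%, Ctsc by 16% and Ctsz by 13.8%. The glycosidase genes Glb1, Hexa and Gaa, the lipid-handling genes Npc1 and Asah1, the ATG8 gene Gabarapl1 and the transcription factor gene Tfe3 also fell, each with a log2 fold change between -0.29 and -0.11, and only Scarb2 rose. With 1 library left out, the call on Hexa was lost without untreated Ripk3-/- replicates 3 or 4 or untreated wild-type replicates 1, 3 or 4 (log2 fold change -0.20 to -0.14). In the same way the call on Gaa was lost without untreated Ripk3-/- replicates 2, 4 or 5 or untreated wild-type replicates 1, 2 or 3 (log2 fold change -0.20 to -0.14), and the call on Npc1 was lost without untreated Ripk3-/- replicates 2, 4 or 5 or untreated wild-type replicates 1, 4 or 5 (log2 fold change -0.15 to -0.11). With TMM scaling the calls on Hexa, Npc1 and Tfe3 were lost too. Normalised counts here are read counts divided by the authors' size factor of each library, given for replicates 1 to 5 of a group in order, and log2 fold changes are edgeR estimates ± their standard error (SE).

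The authors listed 19 of the 55 members (34.5%) in this comparison, and 18% of all genes they tested. By edgeR 21.8% of the members were called lower, beside 7.42% of all genes tested, and 1.82% higher, beside 7.08%. Groups did not overlap for 9 of the 19 listed members, against 57.0% of all listed genes, and all 9 were lower in Ripk3-/- cells. The median log2 fold change of the listed members was -0.13, and 0.10 for all listed genes. Since listing selects genes that differ, these shares describe the list and were not tested against other genes. The members were also chosen with earlier results of these data known, so the shares here and below are no evidence of an excess. Listed but not called were Naglu, Lipa, Atp6ap1, Optn and Nbr1, at log2 fold changes of -0.13 to -0.09, and Atp6v0a1 at 0.11.

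Among the proteases, Ctsh, which encodes cathepsin H, an aminopeptidase, had normalised counts of 1430.0, 1569, 1481, 1402 and 1393 in untreated Ripk3-/- libraries, against 2115, 1998, 2129, 1981 and 1880.2 in untreated wild-type libraries. Every Ripk3-/- library lay below every wild-type library, at means of 1455 ± 72.3 against 2021 ± 103 (SD, n = 5 each) (log2 fold change -0.47 ± 0.05, adjusted p = 9.01e-06 by edgeR). Ctsf, the gene of the cysteine protease cathepsin F and one of those with CACGTG in the promoter shown, had normalised counts of 789.6, 684, 703, 647 and 716 in untreated Ripk3-/- libraries, against 877, 833, 937, 858 and 825 in untreated wild-type libraries. The groups did not overlap, although Ripk3-/- replicate 1, at 789.6, came close to the lowest wild-type library (log2 fold change -0.29 ± 0.06, adjusted p = 0.00377 by edgeR). Ctsb, encoding cathepsin B, a cysteine protease that can leak from damaged lysosomes in hepatocytes, had normalised counts of 13296, 12790.1, 12914, 12143 and 13329.5 in untreated Ripk3-/- libraries, against 15478, 15332, 16078, 15168 and 14840.4 in untreated wild-type libraries. Again the groups did not overlap, with means of 12895 ± 481 against 15379 ± 457 (SD, n = 5 each) (log2 fold change -0.25 ± 0.04, adjusted p = 0.00032 by edgeR). Ctsc encodes the dipeptidyl peptidase that activates granule proteases in leukocytes, and its fall had a log2 fold change of -0.25 (SE 0.04, edgeR adjusted p = 0.00101).

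Among the glycosidases, Glb1, the beta-galactosidase of lysosomes, had normalised counts of 1433, 1327, 1317, 1337 and 1343 in untreated Ripk3-/- libraries, against 1640.5, 1712, 1689, 1648 and 1594 in untreated wild-type libraries. All Ripk3-/- libraries were below all wild-type libraries, and Ripk3-/- replicate 1 was the highest of its group (log2 fold change -0.29 ± 0.04, adjusted p = 0.000145 by edgeR). Scarb2, the membrane receptor that carries glucocerebrosidase to lysosomes and the one member listed in all 4 tables, had normalised counts of 2678, 2687, 2578, 2473 and 2697 in untreated Ripk3-/- libraries, against 2353, 2576, 2421, 2286 and 2419 in untreated wild-type libraries. It was the one member to rise, and the groups overlapped, with untreated wild-type replicate 2 above 1 Ripk3-/- library (log2 fold change 0.12 ± 0.04, adjusted p = 0.0486 by edgeR). The call on Scarb2 was lost on leaving out untreated Ripk3-/- replicates 1, 2, 3 or 5 or untreated wild-type replicates 1, 3, 4 or 5, and the log2 fold change with 1 library left out lay between 0.10 and 0.15. Tfe3, a MiT/TFE transcription factor, had normalised counts of 2514, 2559, 2381, 2429 and 2361 in untreated Ripk3-/- libraries, against 2653, 2639, 2636, 2655 and 2631 in untreated wild-type libraries. The wild-type libraries lay close together and all Ripk3-/- libraries were below them (log2 fold change -0.11 ± 0.03, adjusted p = 0.0315 by edgeR). The call on Tfe3 was lost on leaving out untreated Ripk3-/- replicates 3, 4 or 5 or untreated wild-type replicates 1, 2, 3, 4 or 5, and the log2 fold change with 1 library left out lay between -0.13 and -0.10. Without untreated Ripk3-/- replicate 1, the library that stood apart, 12 members were again called lower and 0 higher, with log2 fold changes of -0.47 for Ctsh, -0.33 for Ctsf, -0.32 for Glb1, -0.27 for Ctsb, -0.12 for Tfe3 and 0.11 for Scarb2.

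With palmitate in both genotypes the same direction held over more members, and more of all genes tested were called lower too (12.1%, beside 7.42% without palmitate). In palmitate-treated Ripk3-/- cells 21 of the 55 members fell relative to palmitate-treated wild-type cells and 5 rose. Falls included 5 of 10 proteases (Ctsh, Ctsc, Ctsb, Ctsz and Ctsf), 6 of 11 glycosidases (Glb1, Hexa, Naglu, Gaa, Gla and Gusb), 3 of 7 lipid-handling genes (Npc1, Lipa and Grn), 4 of 6 initiation and conjugation genes (Atg5, Wipi1, Atg7 and Becn1), the ATG8 gene Gabarapl1, the receptor gene Nbr1 and Tfe3. The membrane protein genes Scarb2, Cd63 and Lamp2, the V-ATPase catalytic subunit gene Atp6v1a and the ATG8 gene Gabarapl2 rose. Log2 fold changes of those that fell ran from -0.33 to -0.08, and of those that rose from 0.07 to 0.15. Of these falls, the call on Ctsf was lost without palmitate-treated Ripk3-/- replicates 1, 2 or 5 or palmitate-treated wild-type replicates 1 or 3 (log2 fold change -0.21 to -0.14). Likewise the call on Gusb was lost without palmitate-treated Ripk3-/- replicate 3 or palmitate-treated wild-type replicates 2 or 3 (log2 fold change -0.12 to -0.09), and the call on Grn was lost without palmitate-treated Ripk3-/- replicate 2 or palmitate-treated wild-type replicate 3 (log2 fold change -0.09 to -0.07).

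The authors listed 28 of the 55 members (50.9%), and 24.6% of all genes they tested. Called lower by edgeR were 38.2% of the members, beside 12.1% of all genes tested, and called higher 9.09%, beside 12.1% as well. These shares too describe a list chosen with earlier results of these data known. Groups did not overlap for 16 of the 28 listed members, 14 of them lower and 2 higher, against 70.5% of all listed genes. The median log2 fold change was -0.14 over the listed members and 0.06 over all listed genes. Ctsl (cathepsin L, log2 fold change -0.07 ± 0.03, adjusted p = 0.0568 by edgeR) and Npc2 (the soluble partner of Npc1, log2 fold change 0.07 ± 0.03, adjusted p = 0.0664 by edgeR) were listed but did not pass.

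Ctsh had normalised counts of 1271, 1354, 1378, 1423 and 1298 in palmitate-treated Ripk3-/- libraries, against 1765, 1691, 1637, 1677 and 1668 in palmitate-treated wild-type libraries. The Ripk3-/- libraries were all lower, at means of 1345 ± 60.8 against 1688 ± 47.8 (SD, n = 5 each) (log2 fold change -0.33 ± 0.04, adjusted p = 8.1e-07 by edgeR). Ctsc had normalised counts of 2355, 2324, 2257, 2248 and 2424 in palmitate-treated Ripk3-/- libraries, against 2759, 2836, 2699, 2740.4 and 2761 in palmitate-treated wild-type libraries. These groups did not overlap either (log2 fold change -0.25 ± 0.03, adjusted p = 9.18e-07 by edgeR). Ctsb had normalised counts of 12155, 12438, 12246, 11926 and 12183 in palmitate-treated Ripk3-/- libraries, against 14668, 14059, 14304, 13891 and 14046 in palmitate-treated wild-type libraries, with every Ripk3-/- library below every wild-type one and means of 12189 ± 184 against 14194 ± 304 (SD, n = 5 each) (log2 fold change -0.22 ± 0.02, adjusted p = 3.59e-07 by edgeR). Ctsz, the carboxypeptidase and the most abundant per length of the 6 proteases found, had normalised counts of 5339, 5426, 5797, 5144 and 5410.3 in palmitate-treated Ripk3-/- libraries, against 6639, 6255, 6224, 6175 and 6012 in palmitate-treated wild-type libraries. It too was separate between the genotypes (log2 fold change -0.21 ± 0.03, adjusted p = 3.17e-05 by edgeR).

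Cd63, a tetraspanin of late endosomes and lysosomes, had normalised counts of 11189, 11629, 12011, 11496 and 12339 in palmitate-treated Ripk3-/- libraries, against 11942, 10368, 11143, 10525 and 10606 in palmitate-treated wild-type libraries. Here the groups overlapped, since wild-type replicate 1 was above 3 of the 5 Ripk3-/- libraries (log2 fold change 0.10 ± 0.04, adjusted p = 0.0413 by edgeR). The call on Cd63 was lost on leaving out palmitate-treated Ripk3-/- replicates 2, 3, 4 or 5 or palmitate-treated wild-type replicates 2, 3, 4 or 5, and the log2 fold change with 1 library left out lay between 0.09 and 0.14. Scarb2 had normalised counts of 2762, 2862, 2747, 2698 and 2922 in palmitate-treated Ripk3-/- libraries, against 2612, 2682, 2738, 2621 and 2581 in palmitate-treated wild-type libraries. The groups overlapped slightly (log2 fold change 0.08 ± 0.03, adjusted p = 0.0468 by edgeR). The call on Scarb2 was lost on leaving out palmitate-treated Ripk3-/- replicates 1, 2, 3 or 5 or palmitate-treated wild-type replicates 1, 2, 4 or 5, and the log2 fold change with 1 library left out lay between 0.06 and 0.09. Lamp2, a major protein of the lysosomal membrane, rose by 4.63% (log2 fold change 0.07 ± 0.02, adjusted p = 0.0381 by edgeR), also with overlapping groups. The call on Lamp2 was lost on leaving out palmitate-treated Ripk3-/- replicates 1, 3, 4 or 5 or palmitate-treated wild-type replicates 1, 2 or 5, and the log2 fold change with 1 library left out lay between 0.06 and 0.08.

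Atp6v1a, the catalytic subunit of the V-ATPase and another of the promoters shown, had normalised counts of 5050.4, 4977, 5056, 4916 and 4973 in palmitate-treated Ripk3-/- libraries, against 4278, 4523, 4615, 4637 and 4415 in palmitate-treated wild-type libraries. Every Ripk3-/- library was above every wild-type library, at means of 4995 ± 58.7 against 4494 ± 149 (SD, n = 5 each) (log2 fold change 0.15 ± 0.03, adjusted p = 0.000121 by edgeR). Gabarapl2, the ATG8 protein also called GATE-16, had normalised counts of 1778, 1780.1, 1784, 1789 and 1837 in palmitate-treated Ripk3-/- libraries, against 1754, 1556, 1639.7, 1550.0 and 1655 in palmitate-treated wild-type libraries. The groups were separate, though wild-type replicate 1 came close to the Ripk3-/- libraries (log2 fold change 0.14 ± 0.04, adjusted p = 0.00578 by edgeR). Tfe3 had normalised counts of 2463, 2399, 2276, 2424 and 2405 in palmitate-treated Ripk3-/- libraries, against 2541, 2714, 2576, 2757 and 2668 in palmitate-treated wild-type libraries. As without palmitate, all Ripk3-/- libraries were below all wild-type libraries (log2 fold change -0.15 ± 0.03, adjusted p = 0.000853 by edgeR). Of the initiation genes, Atg5, part of the enzyme that links ATG8 proteins to lipid, had a log2 fold change of -0.16 (SE 0.05, edgeR adjusted p = 0.00938), and Becn1, a subunit of the lipid kinase complex that starts autophagosomes, -0.09 (SE 0.03, edgeR adjusted p = 0.0218). With 1 library left out, the call on Becn1 was lost without palmitate-treated Ripk3-/- replicate 2 or palmitate-treated wild-type replicates 1 or 3 (log2 fold change -0.10 to -0.08), and the call on Wipi1 was lost without palmitate-treated Ripk3-/- replicates 3, 4 or 5 or palmitate-treated wild-type replicates 1, 2, 4 or 5 (log2 fold change -0.17 to -0.12). None of the 6 initiation genes was listed without palmitate.

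**Figure D2:**
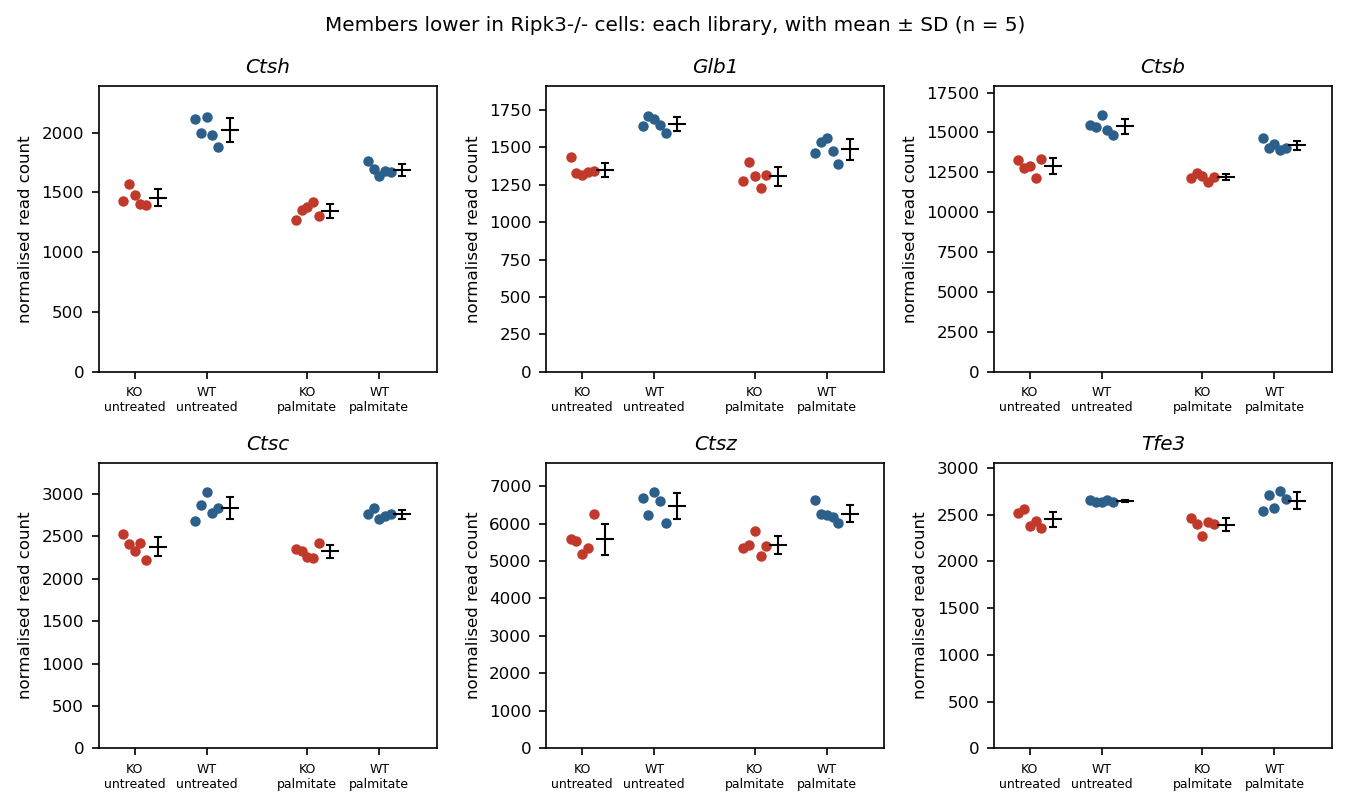
Normalised read count of 6 members in each library (red, Ripk3-/-; blue, wild type), with mean ± SD over 5 libraries; the untreated and the palmitate pairs come from separately normalised tables. In Ctsh, Ctsb, Ctsc and Tfe3 every Ripk3-/- library is below every wild-type library in both pairs, while Glb1 overlaps with palmitate and Ctsz without.

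The genotype comparisons without and with palmitate share no libraries. They shared 15 listed members, which are 78.9% of the 19 and 53.6% of the 28, and all 15 had the same direction: 14 lower in both (Ctsb, Ctsc, Ctsf, Ctsh, Ctsz, Gaa, Gabarapl1, Glb1, Hexa, Lipa, Naglu, Nbr1, Npc1 and Tfe3) and Scarb2 higher in both. Both comparisons set Ripk3-/- against wild-type cells, so a difference between these cells other than Ripk3 could recur in both. Such a difference cannot be told apart from the loss of Ripk3 for any member. The 4 largest falls without palmitate were in Ctsh, Glb1, Ctsf and Ctsb, and 3 of these genes lie on chromosomes 9 and 14.

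Position on the genome went with the direction of the genotype differences. Of the genes listed without palmitate, 202 of 218 on chromosome 14 (92.7%) and 217 of 251 on chromosome 9 (86.5%) were lower in Ripk3-/- cells, against 41.7% on all other chromosomes, and each of these shares was the same without untreated Ripk3-/- replicate 1. With palmitate it was 238 of 270 (88.1%) and 291 of 351 (82.9%), against 44.0%. Among the other chromosomes, 10, 2 and 6 also had most listed genes lower, at 61.3%, 60.6% and 55.1% without palmitate. With palmitate these stood at 63.5%, 57.6% and 55.8%. Ripk3 itself is on chromosome 14. The members there are Ctsb (chromosome 14, 63122462 to 63145923, mm10) and, on chromosome 9, Ctsh (90054152 to 90076089), Glb1 (114401076 to 114474898) and Hexa (59539540 to 59565109), and all 4 were called lower in both comparisons. Off chromosomes 9 and 14, 15 members were listed without palmitate, 13 of them lower, and 24 with it, 18 of them lower. Of all genes listed there 41.7% and 44.0% were lower. Of these members 8 were called lower and 1 higher without palmitate, and 17 lower and 5 higher with it. Without untreated Ripk3-/- replicate 1, 8 were called lower and 0 higher without palmitate, beside 850 and 1142 of all 2425 genes listed there. The number of genes tested there is not known, so shares of tested genes are not given. The members called lower include Ctsz on chromosome 2 and Gabarapl1 on chromosome 6 in both comparisons. With palmitate they also include Atg7 on chromosome 6 and Atg5 on chromosome 10, while Cd63 on chromosome 10 was called higher. What the position contributes to the member values, those of Ctsb, Ctsh, Glb1 and Hexa among them, was not tested. It cannot be told apart from the genotype in these groups.

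**Figure D3:**
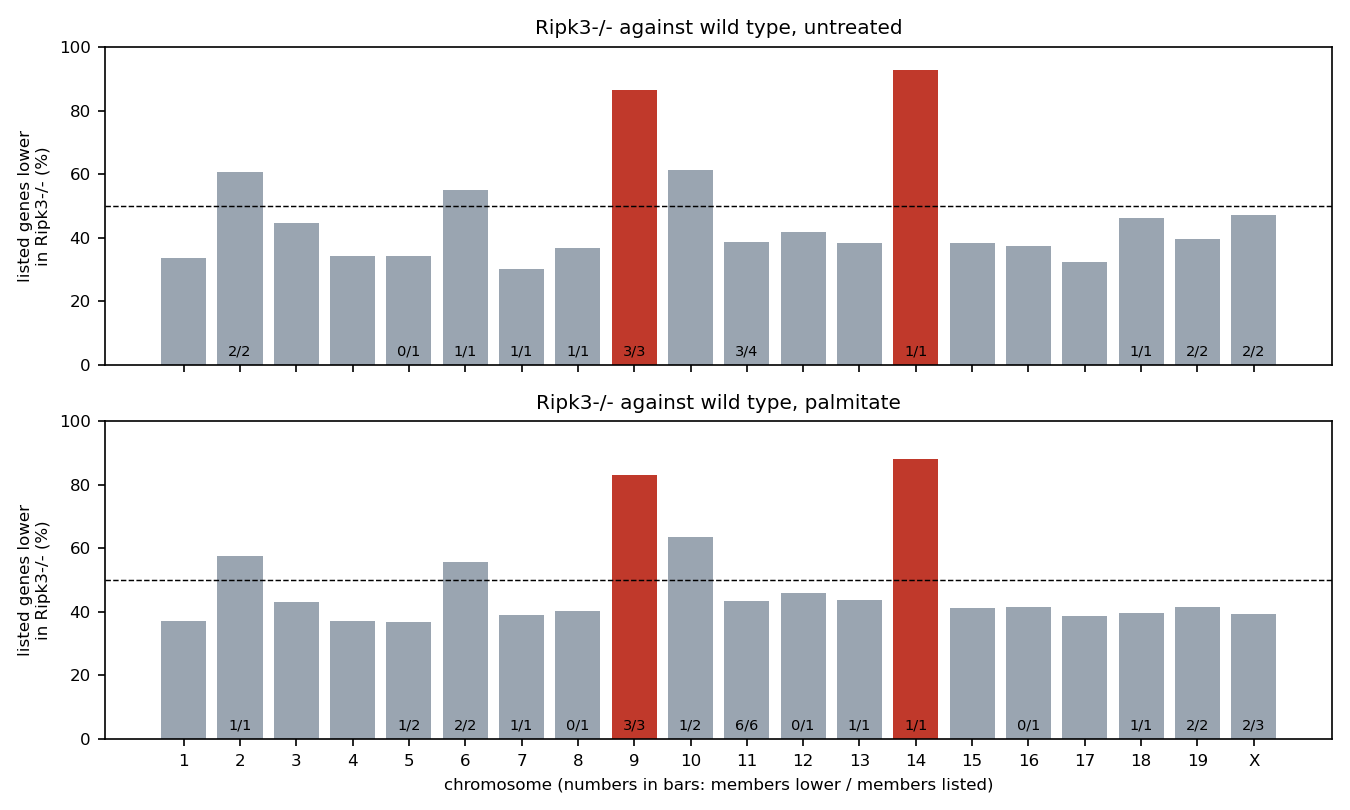
Share of the genes listed in each genotype comparison that were lower in Ripk3-/- cells, by chromosome, in percent (dashed line, 50%; numbers in bars, members lower over members listed). Chromosomes 9 and 14 (red) stand at 86.5% and 92.7% without palmitate and at 82.9% and 88.1% with it.

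With palmitate some members rose and others fell in wild-type cells, and 6 of the 8 roles held both a rise and a fall. By edgeR 10 of the 55 members fell and 6 rose in palmitate-treated relative to untreated wild-type cells, with log2 fold changes of -0.19 to -0.09 and of 0.11 to 0.20. Those that rose were Scarb2, Sqstm1, the alpha-galactosidase gene Gla, the V-ATPase membrane subunit gene Atp6v0a1, Npc1 and Ctsl. The ATG8 genes Gabarap, Map1lc3a and Map1lc3b fell, as did Ctsh, Ctsf, Manba, Npc2, Lamp2, Atp6v1a and Atp6ap1. The count of 6 rises rests on the scaling: with TMM factors, or with size factors DESeq2 took from the listed genes, 2 members rose (Scarb2 and Sqstm1) and 10 fell, which leaves a rise in 2 roles. Both of these scalings used only the listed genes, all selected as differing, so they cannot show which scaling is right. Leaving out palmitate-treated wild-type replicate 2, 4 or 5, or untreated wild-type replicate 3, brought the falls to 6. With 1 library left out, the call on Atp6ap1 was lost without palmitate-treated wild-type replicates 2, 4 or 5 or untreated wild-type replicates 1 or 3 (log2 fold change -0.10 to -0.08), and the call on Npc2 was lost without palmitate-treated wild-type replicates 2, 3, 4 or 5 or untreated wild-type replicates 3 or 4 (log2 fold change -0.12 to -0.08). For the rises, the call on Npc1 was lost without palmitate-treated wild-type replicates 1 or 3 or untreated wild-type replicate 2 (log2 fold change 0.10 to 0.13), and the call on Ctsl was lost without palmitate-treated wild-type replicates 1, 2, 3, 4 or 5 or untreated wild-type replicates 1, 2, 4 or 5 (log2 fold change 0.09 to 0.14).

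The authors listed 16 of the 55 members (29.1%), and 15.8% of all genes they tested. Called lower were 18.2% of the members, beside 6.25% of all genes tested, and called higher 10.9%, beside 8.40%. Groups did not overlap for 12 of the 16, a share close to the 70.1% of all listed genes. The listed members had a median log2 fold change of -0.11, and all listed genes 0.12.

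Among the members that rose, Scarb2 had normalised counts of 2855, 2928, 2986, 2870.1 and 2823 in palmitate-treated wild-type libraries, against 2452, 2691, 2529.7, 2390.0 and 2527 in untreated wild-type libraries. Every palmitate-treated library lay above every untreated one (log2 fold change 0.20 ± 0.03, adjusted p = 0.000369 by edgeR). Sqstm1, the gene of the autophagy receptor p62, had normalised counts of 30716, 30492, 30037, 28148 and 28919 in palmitate-treated wild-type libraries, against 26541, 26647, 27800.3, 26639 and 26273 in untreated wild-type libraries. The groups were separate, with replicate 3 the highest of the untreated libraries, at means of 29662 ± 1094 against 26780.0 ± 590.2 (SD, n = 5 each) (log2 fold change 0.15 ± 0.03, adjusted p = 0.00154 by edgeR). Gla, whose promoter with a pair of CACGTG is shown, had normalised counts of 1416, 1347, 1355, 1335 and 1337 in palmitate-treated wild-type libraries, against 1213, 1248, 1257, 1235 and 1199.8 in untreated wild-type libraries. Palmitate-treated replicate 1 was the highest, and no untreated library reached the palmitate-treated ones (log2 fold change 0.14 ± 0.03, adjusted p = 0.00659 by edgeR). Atp6v0a1, a subunit of the proton channel of the pump, had normalised counts of 3346, 3488, 3443, 3395 and 3484 in palmitate-treated wild-type libraries, against 3234, 3256, 3094, 3072 and 3028 in untreated wild-type libraries. These groups did not overlap either (log2 fold change 0.13 ± 0.03, adjusted p = 0.00468 by edgeR), but the calls on Gla and Atp6v0a1 were among those lost under the other scalings.

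Of those that fell, Ctsh had normalised counts of 1930.0, 1846, 1785, 1836 and 1824 in palmitate-treated wild-type libraries, against 2204, 2088, 2224, 2071 and 1964 in untreated wild-type libraries. All palmitate-treated libraries were below all untreated ones (log2 fold change -0.19 ± 0.04, adjusted p = 0.00137 by edgeR). Ctsf had normalised counts of 882, 797, 799.8, 748 and 796 in palmitate-treated wild-type libraries, against 913, 870.5, 979, 897 and 862 in untreated wild-type libraries. The groups overlapped at palmitate-treated replicate 1 (log2 fold change -0.17 ± 0.05, adjusted p = 0.0278 by edgeR). The call on Ctsf was lost on leaving out palmitate-treated wild-type replicates 2, 3, 4 or 5 or untreated wild-type replicates 1 or 3, and the log2 fold change with 1 library left out lay between -0.20 and -0.14. Gabarap, an ATG8 protein of the GABARAP branch, had normalised counts of 8941, 8612, 8887, 8379 and 8462 in palmitate-treated wild-type libraries, against 10159, 9100.3, 10202, 9592 and 9434 in untreated wild-type libraries. All palmitate-treated libraries were lower, with untreated replicate 2 nearest to them (log2 fold change -0.16 ± 0.03, adjusted p = 0.0021 by edgeR). Map1lc3a, an LC3 gene, had normalised counts of 1057, 1082, 1102, 999 and 1051 in palmitate-treated wild-type libraries, against 1206, 1096, 1311, 1249.6 and 1079.9 in untreated wild-type libraries. Untreated replicates 2 and 5 fell into the range of the palmitate-treated libraries (log2 fold change -0.17 ± 0.05, adjusted p = 0.0373 by edgeR). The call on Map1lc3a was lost on leaving out palmitate-treated wild-type replicates 1, 2, 4 or 5 or untreated wild-type replicates 1, 3 or 4, and the log2 fold change with 1 library left out lay between -0.20 and -0.13.

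In Ripk3-/- cells 6 members were listed for palmitate (10.9% of the 55), a share near the 10.2% of all genes tested. By edgeR 3 rose, Scarb2, the sialidase gene Neu1 and the acid ceramidase gene Asah1, and Map1lc3b fell. That is 5.45% higher and 1.82% lower, beside 4.41% and 3.15% of all genes tested. Groups did not overlap for these 4 of the 6, against 66.1% of all listed genes, and the median log2 fold change was 0.10 over the listed members and 0.16 over all listed genes. With TMM or DESeq2's own factors 0 members rose and 1 fell, so the rises depend on the scaling. Those factors were taken from the listed genes alone, all selected as differing, so they cannot show which scaling is right.

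Scarb2 had normalised counts of 2640.3, 2744, 2630.5, 2584 and 2802 in palmitate-treated Ripk3-/- libraries, against 2450.2, 2458, 2359, 2265 and 2480.4 in untreated Ripk3-/- libraries. The palmitate-treated libraries were all higher (log2 fold change 0.16 ± 0.04, adjusted p = 0.0115 by edgeR). Neu1, which removes sialic acid from glycoproteins and glycolipids, had normalised counts of 1947, 2048, 2081, 2002 and 2061 in palmitate-treated Ripk3-/- libraries, against 1871, 1788, 1798, 1925 and 1909 in untreated Ripk3-/- libraries. The groups did not overlap, though palmitate-treated replicate 1 came close to the highest untreated library (log2 fold change 0.13 ± 0.03, adjusted p = 0.0368 by edgeR). The call on Neu1 was lost on leaving out palmitate-treated Ripk3-/- replicates 2, 3, 4 or 5 or untreated Ripk3-/- replicates 1, 2 or 3, and the log2 fold change with 1 library left out lay between 0.11 and 0.14. Asah1, which splits ceramide, a lipid made from palmitate, had normalised counts of 4931, 4887, 4800.1, 4739 and 4807 in palmitate-treated Ripk3-/- libraries, against 4507, 4476, 4398, 4569.5 and 4549.9 in untreated Ripk3-/- libraries. Its groups were well apart (log2 fold change 0.10 ± 0.02, adjusted p = 0.0171 by edgeR). The call on Asah1 was lost on leaving out palmitate-treated Ripk3-/- replicate 2 or untreated Ripk3-/- replicates 2 or 3, and the log2 fold change with 1 library left out lay between 0.09 and 0.11.

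Map1lc3b, the gene of LC3B, had normalised counts of 5004, 5339, 5298, 5328 and 5338 in palmitate-treated Ripk3-/- libraries, against 5411, 5778, 5604, 5622 and 5881 in untreated Ripk3-/- libraries. All palmitate-treated libraries were below all untreated ones, and replicate 1 was the lowest in both groups (log2 fold change -0.10 ± 0.03, adjusted p = 0.0455 by edgeR). The call on Map1lc3b was lost on leaving out palmitate-treated Ripk3-/- replicates 1, 2, 3, 4 or 5 or untreated Ripk3-/- replicates 2, 3, 4 or 5, and the log2 fold change with 1 library left out lay between -0.12 and -0.09. Sqstm1 had normalised counts of 24901, 25534, 25024, 24369 and 25711 in palmitate-treated Ripk3-/- libraries, against 24223, 23417, 22560.3, 22502 and 24874 in untreated Ripk3-/- libraries. The groups overlapped at untreated replicate 5, and the difference did not pass (log2 fold change 0.09 ± 0.03, adjusted p = 0.113 by edgeR). Ctsl was the other member listed that did not pass (log2 fold change 0.10 ± 0.03, adjusted p = 0.0517 by edgeR). Without untreated Ripk3-/- replicate 1 the counts were again 3 higher and 1 lower, but with Ctsl in place of Neu1. The log2 fold changes were then 0.16 for Scarb2, 0.13 for Neu1, 0.10 for Asah1, 0.11 for Ctsl, 0.11 for Sqstm1 and -0.12 for Map1lc3b.

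**Figure D4:**
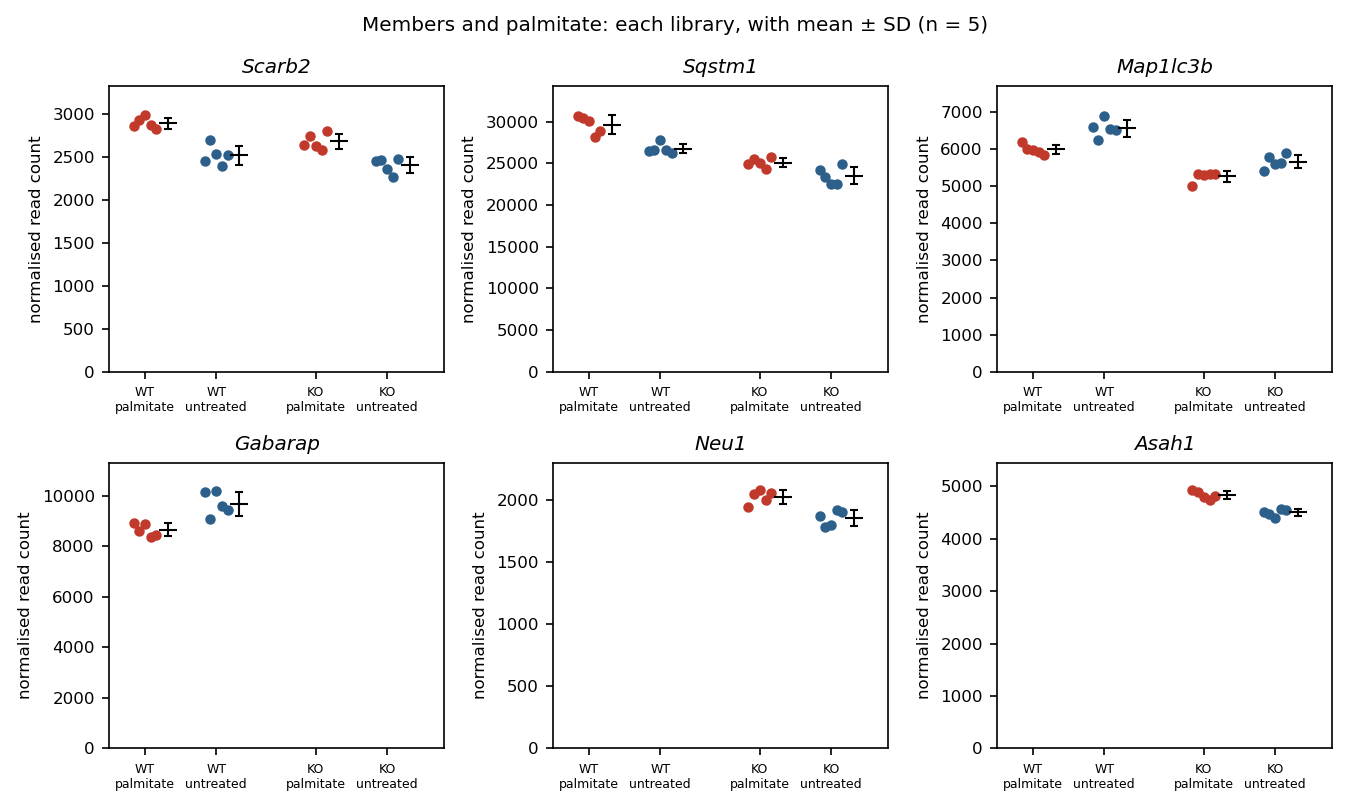
Normalised read count of 6 members in each library (red, palmitate; blue, untreated), with mean ± SD over 5 libraries; wild-type and Ripk3-/- pairs come from separately normalised tables, so their heights are not comparable with each other, and a gene is drawn only where its table lists it. Scarb2 is higher and Map1lc3b lower with palmitate in every library of both genotypes, and Sqstm1 overlaps in Ripk3-/- cells.

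The palmitate comparisons in Ripk3-/- and wild-type cells share no libraries, but each shares 1 group of libraries with each genotype comparison, so palmitate and genotype values of a gene are not independent. Scarb2, Ctsl, Sqstm1 and Map1lc3b were listed in both, which is 66.7% of the 6 and 25.0% of the 16, each in the same direction. A fit over all 20 libraries covers the 18 members among the 2993 genes with counts in every group. Its p-values were adjusted over these 2993 genes only, all already listed, which is less strict than the adjustment over all genes tested. Sqstm1 and Ctsl, which did not pass for palmitate in Ripk3-/- cells above, had edgeR adjusted p-values of 0.0167 and 0.0302 in this fit. This fit used factors derived from the authors' size factors, and its palmitate calls were not repeated under the other scalings. In the separate fits above, other settings took the Ripk3-/- log2 fold change as low as 0.01 for Sqstm1 and Ctsl and 0.07 for Scarb2. The wild-type one went as low as 0.05 for Npc1 and Ctsl, while Scarb2 and Sqstm1 stayed called there. In the fit over all 20 libraries, palmitate was called higher in Ripk3-/- cells for 3 of the 18 (Scarb2, Sqstm1 and Ctsl) and in wild-type cells for 4 (also Npc1), beside 23.4% and 24.9% of all 2993 genes. It was called lower for 1 in Ripk3-/- cells (Map1lc3b) and for 3 in wild-type cells (also Ctsh and Ctsf), beside 16.8% and 17.1%. Without untreated Ripk3-/- replicate 1 the same members were called in each direction. Ctsb and Ctsc, which fell in both genotype comparisons, were not called for palmitate there: Ctsb had a log2 fold change of -0.02 in Ripk3-/- cells (95% confidence interval -0.08 to 0.04) and -0.05 in wild-type cells (-0.11 to 0.01), and Ctsc 0.03 (-0.05 to 0.10) and 0.03 (-0.05 to 0.10). For Sqstm1 the genotype difference without palmitate was 0.00 (-0.06 to 0.07).

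Whether palmitate acted differently in the 2 genotypes was tested with an interaction term. Counts in every group exist only for genes listed in both palmitate comparisons or in both genotype comparisons, so the genes tested are a selected set. Atp6v1a, Lamp2 and Npc2, which fell with palmitate in wild-type cells, and Gla, which rose, had no counts in untreated Ripk3-/- libraries. Atp6v0a1 and Atp6ap1 had none in palmitate-treated Ripk3-/- libraries, and Gabarap, Map1lc3a and Manba none in any Ripk3-/- library. Asah1 had none in palmitate-treated wild-type libraries, and Neu1 none in any wild-type library. The interaction of these members, each called in a palmitate comparison, could not be tested. By edgeR 0 of the 2993 genes were called (0% of them), with 172 at an unadjusted p under 0.05, while limma called 0 and DESeq2 6, none of them a member. Without untreated Ripk3-/- replicate 1 edgeR called 2, again no member. Of the 18 members only Ctsh was at an unadjusted p under 0.05: its palmitate effect was -0.05 in Ripk3-/- cells and -0.19 in wild-type cells, a difference of 0.15 (SE 0.06, 95% confidence interval 0.03 to 0.27, edgeR adjusted p = 0.793). For Scarb2 the difference was -0.04 (-0.14 to 0.06), for Map1lc3b 0.03 (-0.06 to 0.11) and for Sqstm1 -0.05 (-0.14 to 0.04). These intervals bound the differences and do not show that the genotypes responded alike.

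**Figure D5:**
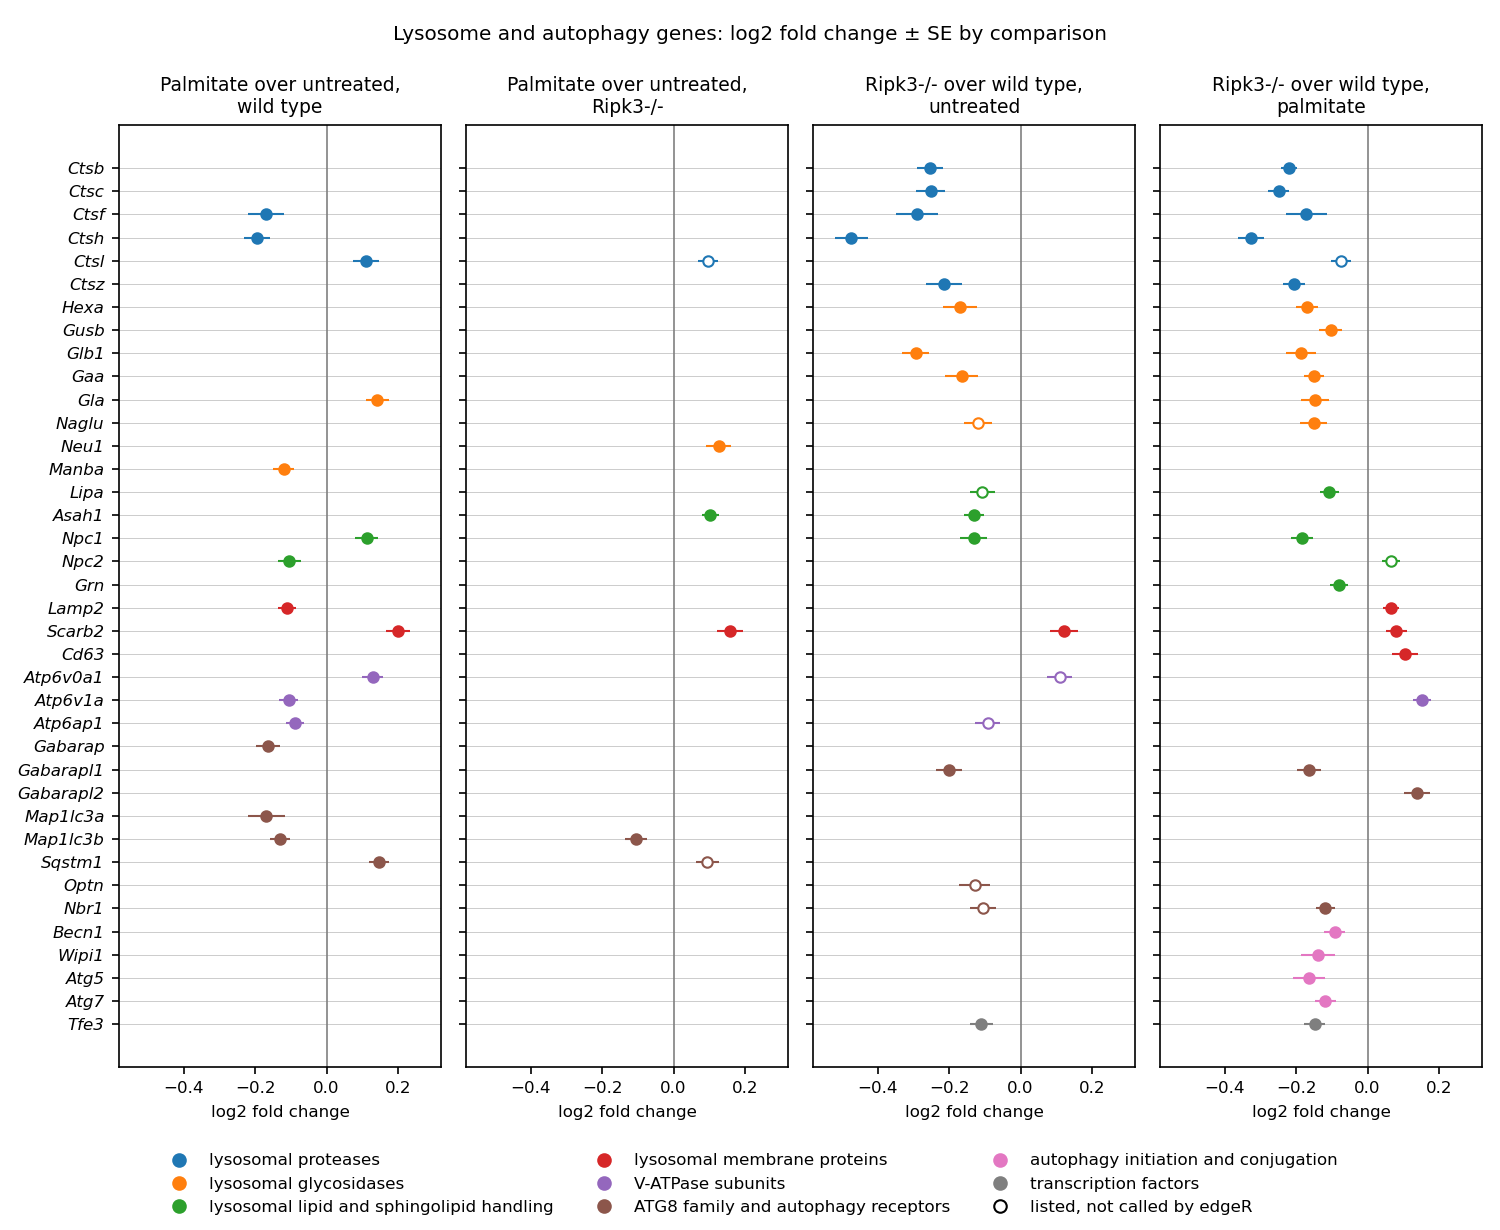
edgeR log2 fold change ± SE of each member in each table that lists it, coloured by role (open circles, listed by the authors but not called by edgeR). Points of the proteases and glycosidases lie left of 0 in both genotype panels, and the palmitate panels hold points on both sides.

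A wider set of 136 lysosomal, sorting, autophagy and mTORC1 genes outside the list was also counted. It was likewise chosen with earlier results of these data known, so its shares are description only. Between genotypes without palmitate 23 were listed (16.9%, beside 18% of all genes tested), 17 called lower (12.5%, beside 7.42%) and 1 higher (0.735%, beside 7.08%). With palmitate 40 were listed (29.4%, beside 24.6%), 23 called lower (16.9%, beside 12.1%) and 16 higher (11.8%, beside 12.1%). Of 40 further lysosomal proteins all 8 listed were called lower without palmitate, beside 1195 of all 2894 listed genes. With palmitate 9 of the 11 listed were called lower and 2 higher, beside 2128 and 2131 of all 4333 listed genes. Off chromosomes 9 and 14, 19 genes of the wider set were listed without palmitate, 16 of them lower, and 36 with it, 20 of them lower. Of all genes listed there 41.7% and 44.0% were lower. Of these genes of the set 13 were called lower and 1 higher without palmitate, and 19 lower and 16 higher with it. Without untreated Ripk3-/- replicate 1, 17 genes of the whole set were called lower and 2 higher without palmitate, 13 and 2 of them off these chromosomes. Then 7 of the 8 further lysosomal proteins remained called lower. The rises were likewise 2 without untreated Ripk3-/- replicate 2 or untreated wild-type replicate 3. The largest fall was in Atp6v0c, the proton-carrying ring subunit of the V-ATPase, at 278.8 ± 115 normalised counts in untreated Ripk3-/- against 489 ± 34.6 in untreated wild-type libraries (SD, n = 5 each, log2 fold change -0.80 ± 0.22, adjusted p = 0.0351 by edgeR), with overlapping groups. Without replicate 1 the untreated Ripk3-/- libraries had 228 ± 15.04 (SD, n = 4, log2 fold change -1.10 ± 0.08, adjusted p = 2.68e-08 by edgeR). The call was lost on leaving out any other 1 of the 10 libraries, and the log2 fold change with 1 library left out lay between -1.10 and -0.72. With palmitate it had 224 ± 38.7 in Ripk3-/- against 459 ± 33.2 in wild-type libraries, and the groups were separate (log2 fold change -1.03 ± 0.09, adjusted p = 1.26e-07 by edgeR). Reads of Atp6v0c can be shared with near-identical copies, so its value is uncertain. Arsg, a lysosomal sulfatase gene of low count, fell to 57.1 ± 12.6 in untreated Ripk3-/- against 86.8 ± 16.95 in untreated wild-type libraries (log2 fold change -0.60, adjusted p = 0.0303 by edgeR) and likewise with palmitate (-0.48, edgeR adjusted p = 0.00642), with overlapping groups both times. Without palmitate, the call on Arsg was lost without untreated Ripk3-/- replicates 4 or 5 or untreated wild-type replicates 2 or 4 (log2 fold change -0.71 to -0.48), and without Ripk3-/- replicate 1 its adjusted p was 0.0366 by edgeR. Tollip, a ubiquitin-binding adaptor, was the gene that rose without palmitate (log2 fold change 0.15, adjusted p = 0.00414 by edgeR), and without Ripk3-/- replicate 1 it (0.14, edgeR adjusted p = 0.00757) was joined by Lamtor1 (0.16, edgeR adjusted p = 0.013). With palmitate the largest rises were in Vamp8, a fusion protein of autophagosomes and lysosomes (0.48, edgeR adjusted p = 0.00523), and Lamtor1, which anchors mTORC1 regulators to the lysosome (0.24, edgeR adjusted p = 1.8e-05).

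For palmitate in Ripk3-/- cells 7 of the 136 were listed (5.15%, beside 10.2% of all genes tested), 4 called lower (2.94%, beside 3.15%) and 2 higher (1.47%, beside 4.41%). In wild-type cells 22 were listed (16.2%, beside 15.8%), 13 called lower (9.56%, beside 6.25%) and 6 higher (4.41%, beside 8.40%). With TMM factors 0 and 3 rose in Ripk3-/- and wild-type cells, and with DESeq2's own factors 0 and 2. Leaving out palmitate-treated wild-type replicate 1 brought the falls in wild-type cells to 8. Mitf, the MiT/TFE relative of Tfe3, had 292.8 ± 23.5 normalised counts in palmitate-treated against 222 ± 14.9 in untreated wild-type libraries (SD, n = 5 each), with no overlap, and the largest rise of the set there (log2 fold change 0.40 ± 0.08, adjusted p = 0.00147 by edgeR). Cln8, an ER protein that helps export lysosomal enzymes, rose in Ripk3-/- cells (0.23, SE 0.06, edgeR adjusted p = 0.034) and in wild-type cells (0.27, SE 0.05, edgeR adjusted p = 0.00182), and its groups were separate in both. Calcoco1, an autophagy receptor for the endoplasmic reticulum, fell in Ripk3-/- cells (-0.20, edgeR adjusted p = 0.0304) and in wild-type cells (-0.18, edgeR adjusted p = 8.23e-05). The serine carboxypeptidase gene Scpep1 also fell in wild-type cells (-0.17, edgeR adjusted p = 0.000214). In Ripk3-/- cells the mTORC1 inhibitor gene Ddit4 rose (0.25, edgeR adjusted p = 0.044) and the mitophagy receptor gene Bnip3l fell (-0.14, edgeR adjusted p = 0.00719). In Ripk3-/- cells the call on Ddit4 was lost without palmitate-treated Ripk3-/- replicates 3, 4 or 5 or untreated Ripk3-/- replicates 1, 2, 3 or 5 (log2 fold change 0.19 to 0.30). Likewise the call on Cln8 was lost without palmitate-treated Ripk3-/- replicates 1, 2, 3, 4 or 5 or untreated Ripk3-/- replicates 1, 2 or 3 (log2 fold change 0.20 to 0.26), and the call on Calcoco1 was lost without palmitate-treated Ripk3-/- replicates 2, 3, 4 or 5 or untreated Ripk3-/- replicates 1, 2 or 3 (log2 fold change -0.24 to -0.16). Without untreated Ripk3-/- replicate 1 these 3 calls were lost, leaving 3 genes called lower (Bnip3l, Scpep1 and Tollip) and 0 higher, and the fall of Bnip3l had a log2 fold change of -0.13 (edgeR adjusted p = 0.0205). The falls numbered 2 on leaving out replicate 2 of either Ripk3-/- group.

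The authors' deposited table of KEGG terms gives the lysosome pathway 34 listed genes between genotypes without palmitate, 28 lower and 6 higher in Ripk3-/- cells (adjusted p = 0.181), and 43 with palmitate, 29 lower and 14 higher (adjusted p = 0.407). For palmitate the same deposited tables of the authors give 9 genes in Ripk3-/- cells, 4 lower and 5 higher, and 20 in wild-type cells, 12 lower and 8 higher. Their animal autophagy pathway held 28 listed genes between genotypes without palmitate, 12 lower and 16 higher, and 46 with palmitate, 22 lower and 24 higher (adjusted p = 0.776 and 0.57 in the authors' deposited table). The authors give each of these p-values for a term as a whole, and the split into lower and higher genes was not tested.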

How the data were processed

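RNA-seq libraries of AML-12 cells were analysed from 4 deposited gene tables, 1 for each pair of groups. Per the submitters' processing notes, the tools were FastQC 0.11.9, HISAT2, featureCounts 1.5.0-p3 and DESeq2 with build mm10; the strandedness is not given in the sources used here, nor is the annotation, so reads of overlapping genes on opposite strands may not be told apart. Per the file headers, the authors deposited raw read counts per gene, normalised counts (a signal equal to the read count over 1 size factor per library and table), FPKM, gene length, the log2 fold change and the p-value and adjusted p-value. Only genes at an adjusted p-value of at most 0.05 are listed. The authors' KEGG tables, with counts of genes and p-values per term, were described only, and the GO tables were not used. There were 0 columns of other samples.

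The number of genes the authors tested, 12871 to 17611, was worked out from their p-values. Each table was fitted with edgeR's quasi-likelihood test (edgeR 4.0.16, limma 3.58.1, DESeq2 1.42.0, R 4.3.3) on the counts with the authors' size factors and no replicate block, with p-values adjusted by Benjamini-Hochberg over the genes tested. Genes were called at an adjusted p of 0.05. The interaction was fitted over all 20 libraries and 2993 genes, and p-values of that fit were adjusted over these 2993 genes. The fits were tested on simulated counts with the same spread setting for every gene and no prior selection of genes. Such counts cannot show how often calls on the selected, listed genes are wrong. The members and gene lists were chosen with earlier results of these data known. Values of every library are given for the 4 higher and 4 lower called members with the largest change per comparison, for a member found in all tables, and for Tfeb, Tfe3, Sqstm1, Lamp1, Ctsd and Ctsb where found; a few others are named with their fit. Of the other pathway genes, the 2 highest and 2 lowest called were named. Promoters are those of members called in the most comparisons, with ties in alphabetical order. Other scalings, tools, a filter at a mean normalised count of 50, a limma pseudocount of 1, a replicate block and leaving out each library were tried. Replicate pairs of a group differed by more than sampling noise (chi-square per degree of freedom at least 2.24), so each library was counted once.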

Additional observations from a re-analysis of the deposited data

Results flagged for a closer look

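Of 119 groups of 5 libraries of listed members, 7 held 1 library whose gap to its nearest neighbour exceeded 0.71 of the group's range, and chance alone flags about 1 in 20 groups. Map1lc3b in palmitate-treated Ripk3-/- replicate 1 had 5003.56 normalised counts, and the other libraries of the group 5298 to 5339. Npc1 in palmitate-treated Ripk3-/- replicate 5 had 1954.35, beside 2099 to 2131, and Gabarapl2 in the same library 1836.78, beside 1778 to 1789. Glb1 in untreated Ripk3-/- replicate 1 had 1432.94, beside 1317 to 1343. Gla in palmitate-treated wild-type replicate 1 had 1416.36, beside 1335 to 1355. In untreated wild-type replicate 3, Sqstm1 had 27800.34, beside 26273 to 26647, and Npc2 7826.51, beside 7059 to 7272.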

How the results depend on the processing

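No member changed direction under any alternative. Calls by edgeR at the authors' size factors were 6 members higher and 10 lower for palmitate in wild-type cells, 3 and 1 for palmitate in Ripk3-/- cells, 1 and 12 for genotype without palmitate and 5 and 21 with it. With TMM the members higher were 2, 0, 2 and 5, and with DESeq2's own factors 2, 0, 2 and 4. Both scalings were taken from the listed genes alone, all selected as differing, so they cannot show which scaling is right. DESeq2 at the authors' factors gave 5 higher for palmitate in Ripk3-/- cells and 2 for genotype without palmitate, as did adjustment over the listed genes only. The limma fit and the filter at a mean normalised count of 50 gave 0 higher for genotype without palmitate, and the filter 3 with palmitate. Leaving out 1 library in turn gave 6 to 10 lower for palmitate in wild-type cells, 1 to 4 higher and 0 to 1 lower for palmitate in Ripk3-/- cells, 0 to 2 higher for genotype without palmitate, and 2 to 4 higher with it. The wider set had 6, 2, 1 and 16 genes higher, and 3, 0, 2 and 16 with TMM and 2, 0, 3 and 15 with DESeq2's own factors. With 1 library left out its genes called were 4 to 7 higher and 8 to 12 lower, 0 to 2 and 2 to 4, 1 to 2 and 12 to 17, and 12 to 14 and 19 to 22. The wider set's settings were chosen after seeing the data. The cause of these shifts was not tested. Interaction calls over all genes were 0, 6 with DESeq2, 4 with a replicate block and 0 to 2 with 1 library left out (2 without untreated Ripk3-/- replicate 1). Of all genes called higher or lower, the share called higher was 57.3% for palmitate in wild-type cells (44.2% with TMM, 42.3% with DESeq2's factors), 58.3% in Ripk3-/- cells (43.8% and 40.2%) and 48.8% for genotype without palmitate (59.2% and 51%).

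Same-numbered libraries correlated at 0.018 to 0.258 for palmitate in wild-type cells (3 of 5 pairs over 0.1), -0.1 to 0.286 in Ripk3-/- cells (4 of 5), -0.055 to 0.101 for genotype without palmitate (1 of 5) and -0.08 to 0.038 with it (0 of 5). In no comparison did every pair pass 0.1 or every library correlate best with its own number, so the numbers were not taken as pairs. With the number as a replicate block the members called higher and lower were 6 and 10, 2 and 1, 1 and 10, and 2 and 20 in the order above. The block ended the calls on Neu1 for palmitate in Ripk3-/- cells, on Hexa and Tfe3 for genotype without palmitate, and on Scarb2, Cd63, Lamp2 and Gusb with it. In every setting 8 of 16, 0 of 4, 8 of 13 and 18 of 26 calls remained. The 17 unlisted members have no values here, so their depth is not known.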
